A study of Mus musculus with 14 samples.

Results

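The 9 genes of the laminin family and of the matrix laid down at wounds followed here were Lama3, Lamb3, Lama5, Lamb2 and Lamc1, which encode laminin chains, Col7a1, which encodes the collagen of anchoring fibrils, and Fn1, Tnc and Thbs1, which encode fibronectin, tenascin-C and thrombospondin 1. They were chosen by name, 9 of the 55228 gene symbols in the count table, with earlier results of these data known. Shares of all genes given beside them are thus a description and no test of the choice. All 9 had a count in each of the 14 libraries. The libraries were bulk RNA-seq of small cell pools from mouse tail epidermis. Every mouse carried Lrig1CreER/Rosa-TdTomato, in which an inducible Cre under the Lrig1 gene switches on a red fluorescent label, so that labelled cells descend from Lrig1-expressing cells, a progenitor population of the upper hair follicle. All cells were at the time point labelled 8w pw1 and had no treatment. They were sorted as Lrig1 GL Sca1+ cells and spent 1 week in culture in keratinocyte complete medium, so the values describe cultured cells and not the tissue. The compared groups were 8 libraries from a control, non-memory region and 6 libraries from the distal memory region, the area away from an injury that the study links to a lasting memory of it. Descriptions of the samples place them in 4 sets, control sets 1 and 2 with 6 and 2 libraries and distal sets 1 and 2 with 2 and 4, and no set holds both regions. No label ties libraries to separate animals or cultures, so every p-value below covers the spread among these 14 libraries alone, part of which may be technical.

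Laminins are proteins made of 1 alpha, 1 beta and 1 gamma chain, each from its own gene. They are part of the basement membrane on which basal keratinocytes sit. In skin, Lama3 and Lamb3 encode chains of the laminin that anchors hemidesmosomes and that migrating keratinocytes deposit on a wound bed, while Lama5 with Lamb1 or Lamb2 and Lamc1 encodes the other main epidermal laminins. Type VII collagen from Col7a1 ties the basement membrane to the dermis. Fibronectin, tenascin-C and thrombospondin 1 are secreted glycoproteins that are sparse in resting skin and abundant in the provisional matrix of wounds, and fibroblasts as well as keratinocytes make them.

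Total counts were 4515646 to 7458872 in the control libraries and 2137934 to 4513518 in the distal libraries, which did not overlap. All 14 keratinocyte markers listed were detected, with a summed level of 20926 to 29368 CPM (counts scaled to the library's total) in control and 25125 to 34450 CPM in distal libraries, and the markers of immune cells summed to at most 1.37 CPM. The libraries also differed in how counts followed the GC content of transcripts. Per 10 percentage points of GC, a library's log2 level relative to the mean of all libraries changed by -0.599 to -0.326 in control and by 0.225 to 0.908 in distal libraries. These ranges did not overlap, so the trend and the region cannot be told apart. The levels of the 9 genes are therefore compared without correction and with the trend of GC content and transcript length removed, once from the median over a gene's annotated transcripts and once from its longest transcript. The second version was added after the data were seen, because the median transcript of several members is a fragment: 606 bases for Lama5 against 11388 for its longest transcript, and 924 against 7622 for Lamc1.

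Without correction, 6 of the 9 genes were higher in the distal cells (Lama3, Lamb3, Lama5, Lamb2, Col7a1 and Tnc), none was lower, and Lamc1, Fn1 and Thbs1 did not pass the test (edgeR quasi-likelihood test, Benjamini-Hochberg adjusted p under 0.05 over 11757 genes). At an unadjusted p under 0.05 the counts were also 6 and 0, and DESeq2 called 7 higher, Fn1 in addition, and 0 lower. The share of all genes at an unadjusted p was not counted, here or below. By adjusted p, 48.3% of all genes tested with edgeR passed, 24.3% as higher and 24.1% as lower. With DESeq2 41.4% passed, 19.3% as higher. The median log2 fold change of the 9 genes was 0.51, beside -0.16 over all genes. Their median GC content was 53.5%, beside 49.6% over all genes. For the 2331 genes at 51.5% to 55.4% GC the median log2 fold change was 0.50. With the trend removed, the median of the 9 genes was 0.35 by the median and 0.25 by the longest transcript. Over all genes it was then 0.03 and 0.02. With the trend removed by the median transcript, 3 of the 9 passed, all higher (Lama3, Lamb3 and Lamc1), beside 18.9% of all genes, 10.4% as higher and 8.57% as lower. With the longest transcript, 2 of the 9 passed, Lama3 and Lamb3, beside 18.9% of all genes, 10.6% as higher and 8.32% as lower. Lama3 and Lamb3 were thus the members that were called higher in all 3 fits, Lama3 narrowly with the longest transcript (edgeR adjusted p = 0.049). The share of all genes called higher in all 3 fits was not counted. With counts summed per set, which leaves 2 values in each region, 4 of the 9 passed as higher, Lamb3, Lama5, Lamb2 and Col7a1, beside 30.5% of all genes and 18.8% as higher. Lamb3 alone passed in the libraries above 4000000 counts, 8 control and 2 distal (11.6% of all genes, 6.98% as higher). Those 2 distal libraries, replicates 3 and 4 of set 2, also had the smallest GC slopes of their group, 0.225 and 0.341. Depth, set and slope were not tested apart. Lamb3 alone also passed without control set 1, which leaves 2 control libraries (19.6% of all genes, 10.1% as higher). Leaving out distal set 2 also leaves 8 control and 2 distal libraries, the latter with GC slopes of 0.908 and 0.742. The same count as in the uncorrected fit, 6, then passed as higher (40.4% of all genes, 22.3% as higher). Without distal set 1 it was 5 (35.1% of all genes, 20.9% as higher).

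**Figure D1:**
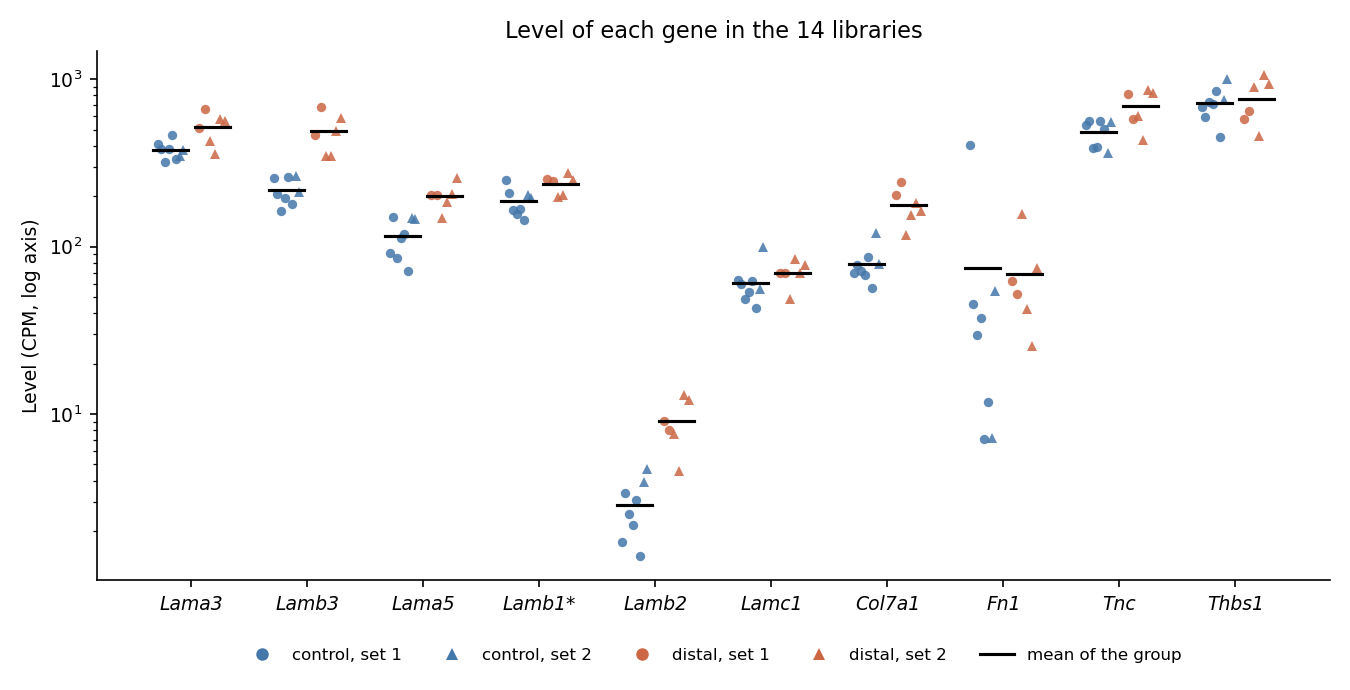
Level of each gene in every library, in CPM on a log axis, with control libraries in blue, distal libraries in orange, the set by the shape of the point and the mean of each group as a line; an asterisk marks Lamb1, a partner chain that is not among the 9 genes. Lamb3 is the gene whose 6 distal points, 347 to 684 CPM, all lie above its 8 control points, 163 to 265 CPM, and Fn1 spreads from 7.08 to 404 CPM within the control group.

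**Figure D2:**
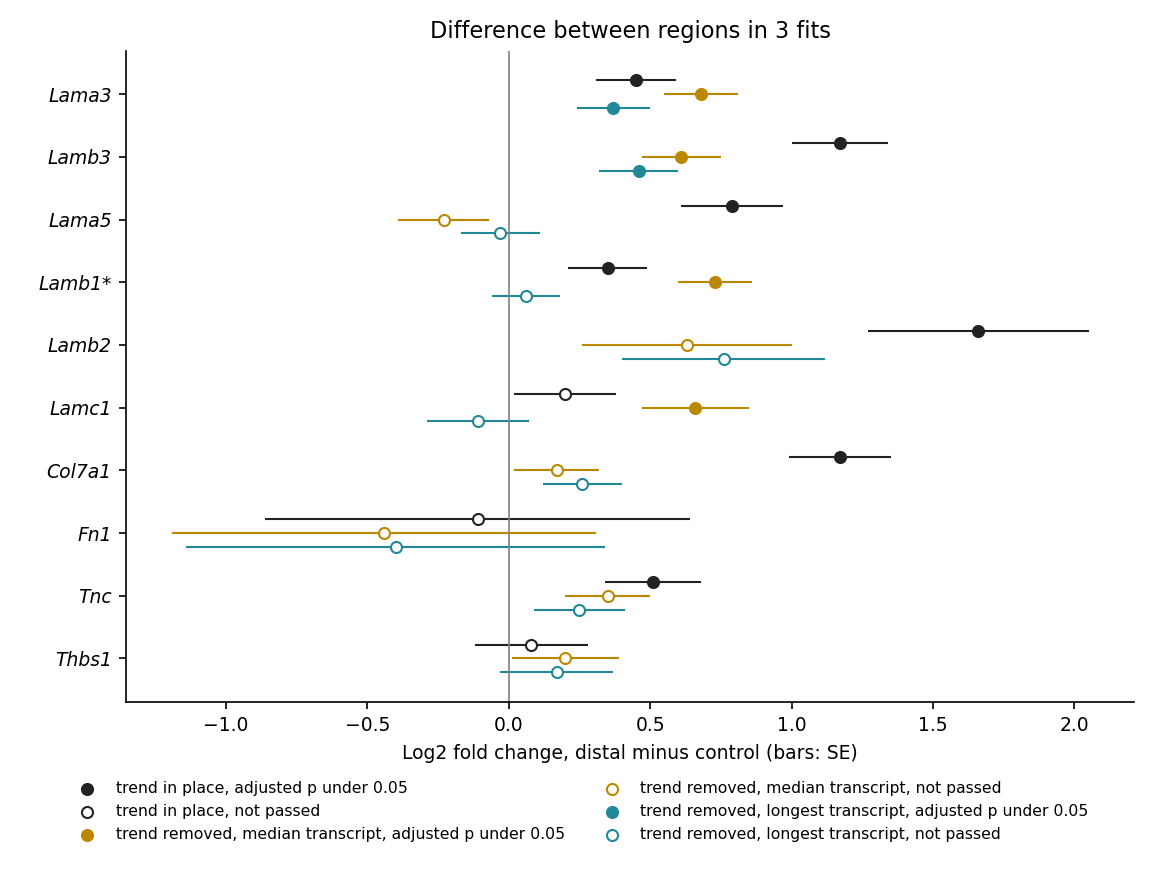
Log2 fold change, distal minus control, with its standard error (SE) as a bar, in the uncorrected fit (black) and with the GC and length trend removed by the median (ochre) or the longest transcript (blue-green); filled points passed an adjusted p of 0.05 and an asterisk marks Lamb1, which is not among the 9 genes. Lama3 and Lamb3 are filled in all 3 fits, while Lama5 and Col7a1 move from 0.79 and 1.17 to values near 0.

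Start regions were available in the RefSeq promoter table (GRCm38.p6) for 4 of the genes that rose and whose window before the start was free of annotated exons apart from 1 base in Lamb3. They are shown because each of these genes was called higher without correction. Of these, Lamb3 alone was also called with the trend removed. The GC content of their transcripts was 52.7% (Tnc) to 58.1% (Lama5), beside a median of 49.6% over all genes tested. Each line gives the 250 bases before the start, 5′ to 3′ on the gene's strand, with capitals for matches on either strand to a GC box (GGGCGG) or a TATA box (TATAAA).
Lamb3: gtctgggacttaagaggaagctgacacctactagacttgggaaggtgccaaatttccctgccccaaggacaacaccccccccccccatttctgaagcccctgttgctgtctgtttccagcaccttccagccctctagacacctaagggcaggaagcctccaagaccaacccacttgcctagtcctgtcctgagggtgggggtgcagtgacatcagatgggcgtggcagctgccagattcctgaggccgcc
Lama5: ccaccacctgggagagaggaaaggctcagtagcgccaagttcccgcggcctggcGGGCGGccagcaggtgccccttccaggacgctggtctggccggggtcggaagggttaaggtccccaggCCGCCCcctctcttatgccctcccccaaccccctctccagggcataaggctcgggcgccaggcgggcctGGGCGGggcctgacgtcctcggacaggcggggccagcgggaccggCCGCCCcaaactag
Col7a1: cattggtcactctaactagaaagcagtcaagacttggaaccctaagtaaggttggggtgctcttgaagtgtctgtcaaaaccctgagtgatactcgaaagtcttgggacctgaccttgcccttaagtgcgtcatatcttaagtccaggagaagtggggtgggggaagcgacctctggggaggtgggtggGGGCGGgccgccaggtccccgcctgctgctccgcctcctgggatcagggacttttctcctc
Tnc: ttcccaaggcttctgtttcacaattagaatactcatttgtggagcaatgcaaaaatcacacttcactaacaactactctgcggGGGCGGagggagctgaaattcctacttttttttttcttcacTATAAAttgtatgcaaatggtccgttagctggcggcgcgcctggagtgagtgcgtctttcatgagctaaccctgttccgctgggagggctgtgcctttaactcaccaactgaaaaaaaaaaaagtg
They lie at chr1:193301744-193301993 on the plus strand (Lamb3, the upstream of its 2 starts in the table, which lies 94295 bases downstream of the 5′ end of the gene in GENCODE and so inside the gene's annotated span), chr2:180225860-180226109 on the minus strand (Lama5), chr9:108953336-108953585 on the plus strand (Col7a1) and chr4:64047016-64047265 on the minus strand (Tnc). The window of Lama5 held 4 GC boxes, beginning at -196, -128, -59 and -14 from the start, and was 72.4% GC. Those of Col7a1 and Tnc held 1 each, at -61 and -167, with a GC content of 56.4% and 44.8%. Tnc had 1 TATA box at -126, and Lamb3 had no match at 58.8% GC. Over 32851 promoter windows of the same length, 32.7% held a GC box and 12.4% a TATA box, and the median GC content was 52.4%. An AP-1 site (TGANTCA) and a CRE-like site (TGACGTCA), searched on both strands, were in none of the 4 windows and in 6.75% and 1.55% of all windows. No matches of different motifs overlapped in these windows, and whether any match is used was not measured.

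Lama3 and Lamb3, of the hemidesmosomal laminin, were both higher in the distal cells. Lamb3 (chr1:193207699-193343878, GRCm38, plus strand) encodes the beta chain. Its level in control replicates 1 to 8 was 257, 206, 163, 195, 259, 180, 265 and 212 CPM, and in distal replicates 1 to 6 it was 463, 684, 347, 350, 490 and 588 CPM. The groups did not overlap, which was so for 18.3% of all genes tested, and in 12.7% every distal library was above every control library. Means were 217 CPM ± 38.8 (SD, n = 8) in control and 487 CPM ± 133 (SD, n = 6) in distal cells, 2.24-fold higher, which on the log2 scale is 1.17 ± 0.17 (SE; edgeR adjusted p = 3.4e-05). After removal of the trend the log2 value was 0.61 ± 0.14 (SE, edgeR adjusted p = 0.0056) by the median and 0.46 ± 0.14 (SE, edgeR adjusted p = 0.026) by the longest transcript. Its call was lost only with counts summed per set and the trend removed together (0.59, edgeR adjusted p = 0.13) among the 48 alternatives run.

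Lama3 encodes the alpha chain, which carries the sites that integrins bind. It was at 412, 385, 319, 384, 461, 332, 346 and 380 CPM in control replicates 1 to 8 and at 510, 662, 426, 356, 575 and 564 CPM in distal replicates 1 to 6. Every control library was exceeded by 4 of the 6 distal libraries, and distal replicates 3 and 4, the deepest distal libraries, lay within the control range. These libraries also had the smallest GC slopes of the distal group, 0.225 and 0.341, and its lowest levels of Lamb3. The mean was 377 CPM ± 45.9 (SD, n = 8) in control and 516 CPM ± 110 (SD, n = 6) in distal cells, a difference of 0.45 ± 0.14 on the log2 scale (SE, edgeR adjusted p = 0.016). Removing the trend gave 0.68 ± 0.13 (SE, edgeR adjusted p = 0.0011) by the median and 0.37 ± 0.13 (SE, edgeR adjusted p = 0.049) by the longest transcript. It did not pass on sums over each set (0.65, edgeR adjusted p = 0.083), without distal set 1 (0.43, edgeR adjusted p = 0.057) and with no filter on low counts (0.40, edgeR adjusted p = 0.066), and the log2 fold change in the libraries above 4000000 counts was 0.03 (edgeR adjusted p = 0.92). An antisense gene on the opposite strand, Gm29200, overlaps its exons, but never had more than 17 counts in a library.

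Ratios of chains within a library show unequal change directly, since the scaling of the library cancels. The log2 ratio of Lamb3 to Lama3 was -0.68, -0.90, -0.96, -0.98, -0.83, -0.88, -0.39 and -0.84 in control replicates 1 to 8 and -0.14, 0.05, -0.29, -0.03, -0.23 and 0.06 in distal replicates 1 to 6. Every distal library was thus above every control library, and the means differed by 0.71 (two-sided exact permutation test over libraries, p = 0.00067, the smallest that 3003 regroupings allow, adjusted p = 0.0024 over 18 ratio tests run). Without each set in turn the difference was 0.52 to 0.78. It was -0.06 and 0.09 with the trend removed by the median and the longest transcript (exact permutation test, adjusted p = 0.54 and 0.4), so Lama3 and Lamb3 were not shown to change unequally once the trend of GC content and length was removed.

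**Figure D3:**
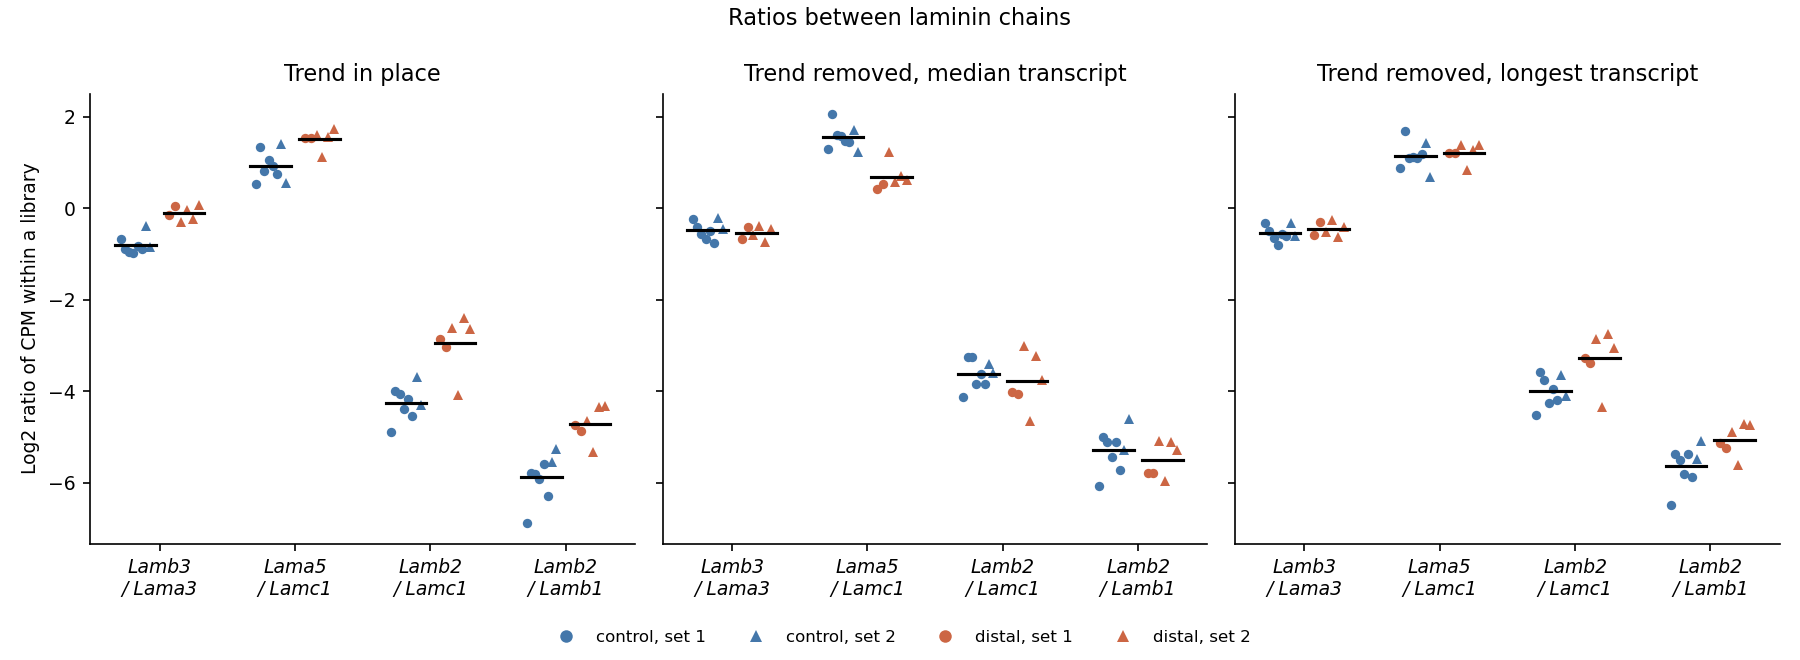
Log2 ratio of CPM between laminin chains within each library, uncorrected (left) and with the GC and length trend removed by the median (middle) or longest transcript (right); blue marks control, orange distal, the shape the set, and lines the group means. The difference of Lamb3 to Lama3, distal minus control, is 0.71, -0.06 and 0.09 from left to right, and that of Lama5 to Lamc1 is 0.60, -0.88 and 0.07.

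For the chains of the other epidermal laminins the calls differed with and without the trend of GC content and length. Lama5 (chr2:180176373-180225859, minus strand), the alpha chain of the laminins of resting basement membrane, was at 91.6, 151, 86, 112, 119, 71.9, 149 and 146 CPM in control replicates 1 to 8 and at 202, 202, 149, 184, 206 and 258 CPM in distal replicates 1 to 6. All distal libraries but replicate 3 were above the control range. Means of 116 CPM ± 30.8 (SD, n = 8) and 200 CPM ± 35.4 (SD, n = 6) differed by 0.79 ± 0.18 on the log2 scale (SE, edgeR adjusted p = 0.0017). Its transcripts are 58.1% GC in the median, in the richest 20% of all genes by GC, of which 67.1% were called higher with a median log2 fold change of 1.09. Once the trend was removed the log2 fold change was -0.23 ± 0.16 (SE, edgeR adjusted p = 0.35) by the median and -0.03 ± 0.14 (SE, edgeR adjusted p = 0.9) by the longest transcript, with an interval of -0.31 to 0.24 (95%) for the second.

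Lamb2 (chr9:108479736-108490530, plus strand), a beta chain that replaces that of Lamb1 in some laminins, was the scarcest of the 9 genes, with 126 counts over the 8 control and 177 over the 6 distal libraries. It was at 1.42 to 4.67 CPM in control (median 2.8) and 4.59 to 13 CPM in distal libraries (median 8.59), and 5 of 6 distal libraries were above the control range. The 3.15-fold rise, 1.66 ± 0.39 on the log2 scale (SE, edgeR adjusted p = 0.0019), had the widest error of the 6 that rose. Removing the trend gave 0.63 ± 0.37 (SE, edgeR adjusted p = 0.26) by the median and 0.76 ± 0.36 (SE, edgeR adjusted p = 0.16) by the longest transcript. Lamb1, its alternative in the trimer and not one of the 9 genes, was far more abundant, with 186 CPM ± 34.9 (SD, n = 8) in control and 238 CPM ± 30.6 (SD, n = 6) in distal libraries. The log2 fold change of Lamb1 was 0.35 (edgeR adjusted p = 0.049), 0.73 (edgeR adjusted p = 0.00096) with the median and 0.06 (edgeR adjusted p = 0.79) with the longest transcript. The uncorrected call of Lamb1 was lost without control replicate 3, 5, 6, 7 or 8 (0.31 to 0.37).

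Lamc1 (chr1:153218922-153332786, minus strand) encodes the gamma chain shared by most laminins outside the hemidesmosome. It was at 63.2, 59.8, 48.6, 53.9, 62.1, 42.8, 56 and 99.8 CPM in control replicates 1 to 8 and at 69.2, 69.1, 48.6, 84.2, 69.7 and 77.5 CPM in distal replicates 1 to 6, and the groups overlapped. The log2 fold change was 0.20 ± 0.18 (SE, edgeR adjusted p = 0.38). Its GC content is 46.4% in the median and 53% in the longest transcript, which also differ in length, and the parts of GC content and length were not tested separately. With the median it rose by 0.66 ± 0.19 (SE, edgeR adjusted p = 0.022), a call lost without distal replicate 6 (0.60, edgeR adjusted p = 0.057), and with the longest transcript the value was -0.11 ± 0.18 (SE, edgeR adjusted p = 0.73). The log2 ratio of Lama5 to Lamc1 followed: it differed by 0.60 without correction (exact permutation test, adjusted p = 0.0072), by -0.88 with the median (exact permutation test, adjusted p = 0.0024) and by 0.07 with the longest transcript (exact permutation test, adjusted p = 0.65). Lamb2 to Lamb1 differed by 1.17, -0.21 and 0.57 on the same scales (exact permutation test, adjusted p = 0.003, 0.45 and 0.023), and Lamb2 to Lamc1 by 1.32, -0.17 and 0.72 (exact permutation test, adjusted p = 0.0053, 0.54 and 0.023).

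The chains Lama1, Lama2, Lama4 and Lamc3 were too low to test. Lama1 had 1 count over the control and 23 over the distal libraries, the latter in 2 libraries, Lama2 had 7 and 0, Lama4 58 and 10, and Lamc3 0 and 3. Lama3 and Lama5 were the alpha chains with enough counts for a test.

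**Figure D4:**
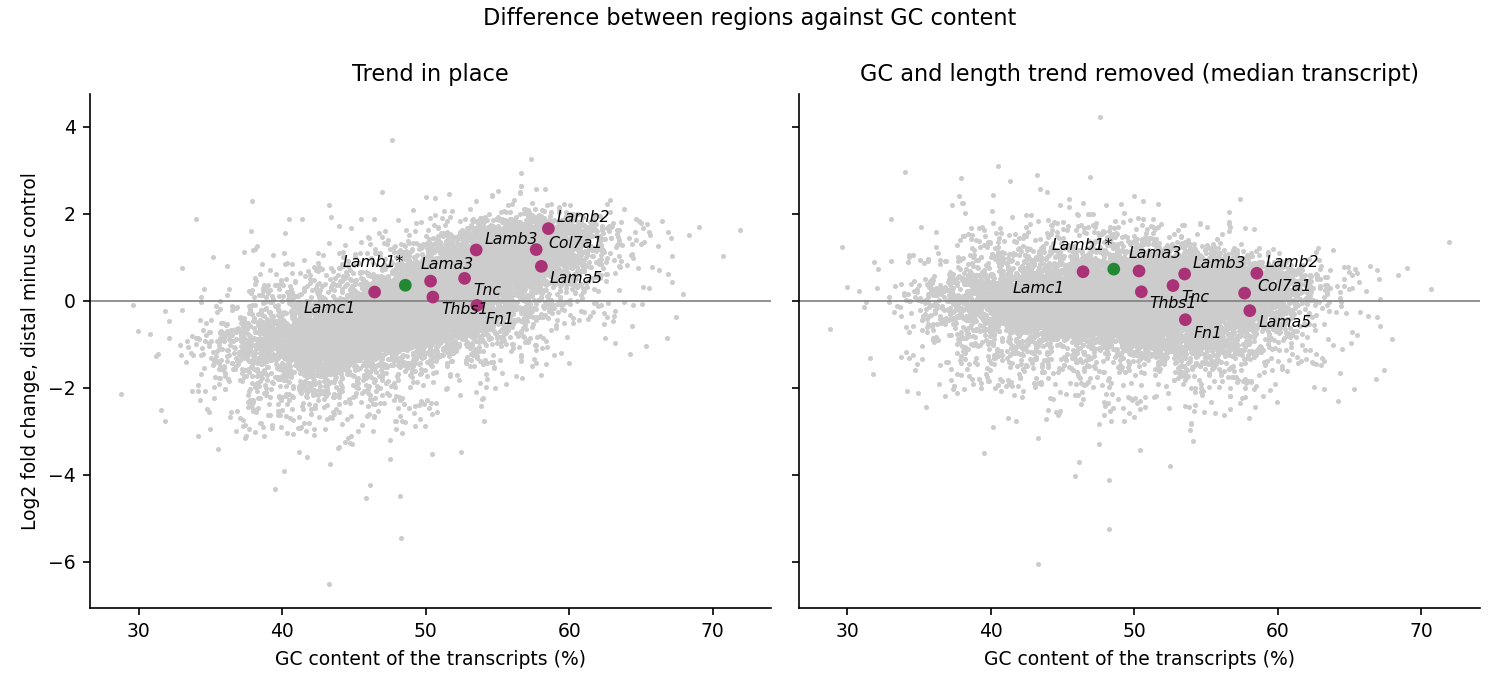
Log2 fold change, distal minus control, of every gene tested (grey) against the GC content of its transcripts (median, in percent), with the trend in place (left) and removed by the median transcript (right); the 9 genes are purple, and Lamb1 is green with an asterisk. In the left panel Lama5, Lamb2 and Col7a1, at 57.7% to 58.6% GC, lie within the rising cloud, and in the right panel the cloud is level.

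Col7a1 (chr9:108953586-108984875, plus strand) was higher in the distal cells without correction. Its level was 69.8, 77.5, 71.3, 67.5, 86.4, 56.8, 121 and 78.3 CPM in control replicates 1 to 8 and 202, 244, 117, 154, 182 and 164 CPM in distal replicates 1 to 6. One control library, replicate 7, reached above the lowest distal library, replicate 3. Means of 78.6 CPM ± 19.3 (SD, n = 8) and 177 CPM ± 43.4 (SD, n = 6) differed 2.25-fold, or by 1.17 ± 0.18 on the log2 scale (SE, edgeR adjusted p = 5.5e-05). It also passed on sums over each set (1.27, edgeR adjusted p = 0.0062). Like Lama5 it lies in the richest 20% by GC content, and with the trend removed the log2 fold change was 0.17 ± 0.15 (SE, edgeR adjusted p = 0.45) by the median and 0.26 ± 0.14 (SE, edgeR adjusted p = 0.23) by the longest transcript. The last value had an interval of -0.02 to 0.54 (95%). Since the trend and the region cannot be told apart, the part of each in the uncorrected value was not tested.

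Fn1 (chr1:71585520-71653200, minus strand), which encodes fibronectin, the first scaffold of a wound's provisional matrix, varied more within each region than between them. It was at 404, 45.5, 29.8, 37.7, 7.08, 11.8, 7.14 and 54.6 CPM in control replicates 1 to 8 and at 62.6, 52.3, 157, 42.2, 25.4 and 74.7 CPM in distal replicates 1 to 6. Control replicate 1 and distal replicate 3 stood far above the rest of their groups. The log2 fold change was -0.11 ± 0.75 (SE, edgeR adjusted p = 0.91) and depended on those libraries. Without control replicate 1 it was 1.32 (edgeR adjusted p = 0.034), without distal replicate 3 it was -0.54, and without both it was 0.89 ± 0.46 (SE, edgeR adjusted p = 0.12). DESeq2, which at its default can replace outlying counts in the 8 control but not in the 6 distal libraries, gave 1.17 (DESeq2 adjusted p = 0.03). No direction for Fn1 can be given from these libraries.

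The same 2 libraries held the most counts of fibroblast markers. The 14 markers listed summed to 328 CPM in control replicate 1, beside 6.11 to 45.6 CPM in the other control libraries, and to 215 CPM in distal replicate 3, beside 18.6 to 28.8 CPM in the other distal libraries. Of the 14, 13 had a count, 7 averaged above 1 CPM, and Lum, a defining marker of dermal fibroblasts, was at 0 in all libraries. Col1a2, a chain of the fibroblast collagen, was at 168 CPM in control replicate 1, at 74.2 CPM in distal replicate 3 and at most 9.23 CPM elsewhere. Col1a1, Pdgfra, Vim, Thy1 and Col6a1 were also highest of their group in these libraries, but not all markers were. Dcn was at 0 CPM in control replicate 1 and at 1.15 CPM in distal replicate 3, below 4.04 CPM in distal replicate 6. Col3a1 was at 14.6 CPM in control replicate 1, but its 0.916 CPM in distal replicate 3 was below the 2.46 CPM of distal replicate 1. Whether other cells contributed the Fn1 counts was not tested, and in bulk samples fewer cells of a type and less RNA per cell cannot be told apart. Leaving out both libraries, an alternative added after the data were seen, kept the count of members called at 6 higher and 0 lower, also at an unadjusted p, and at 3 with the trend removed by the median transcript, beside 49.8% and 17.5% of all genes, and 24.2% and 9.34% as higher.

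**Figure D5:**
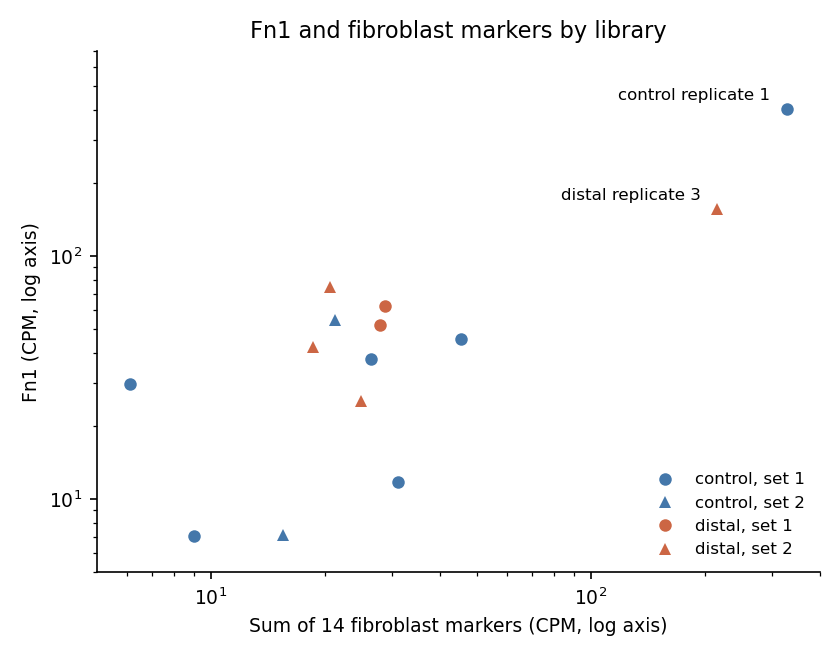
Fn1 level against the summed level of 14 fibroblast markers in each library, both in CPM on log axes, with control in blue, distal in orange and the set by shape. Control replicate 1 (404 and 328 CPM) and distal replicate 3 (157 and 215 CPM) stand apart at the top right, and the other 12 libraries lie below 75 CPM of Fn1.

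Tnc (chr4:63959785-64047015, minus strand), which encodes an adhesion-modulating hexamer of wound edges, was at 529, 560, 387, 394, 559, 506, 363 and 554 CPM in control replicates 1 to 8 and at 811, 576, 605, 436, 861 and 832 CPM in distal replicates 1 to 6. In 5 of the 6 distal libraries it was above every control library, and replicate 4 was within the control range. Its mean of 687 CPM ± 172 (SD, n = 6) in distal cells stood against 482 CPM ± 85.1 (SD, n = 8) in control, a rise of 0.51 ± 0.17 on the log2 scale (SE, edgeR adjusted p = 0.018). That size was kept in part with the trend removed, 0.35 (edgeR adjusted p = 0.13) by the median and 0.25 (edgeR adjusted p = 0.29) by the longest transcript, and neither passed. With the median transcript it passed without distal replicate 4 (0.44, edgeR adjusted p = 0.043). On sums over each set the value was 0.69 (edgeR adjusted p = 0.067), and with no filter on low counts it was 0.46 (edgeR adjusted p = 0.052). A noncoding gene on the opposite strand, 8030451A03Rik, overlaps its exons and had up to 120 counts in a library, and the sources used here do not say whether the counting used strand.

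Thbs1 (chr2:118111876-118127133, plus strand) encodes thrombospondin 1, a platelet and wound protein that activates latent TGF-beta. It was at 679, 591, 733, 707, 850, 451, 750 and 996 CPM in control replicates 1 to 8 and at 579, 642, 896, 455, 1062 and 942 CPM in distal replicates 1 to 6, and the ranges coincided almost fully. The log2 fold change was 0.08 ± 0.20 (SE, edgeR adjusted p = 0.74), with an interval of -0.31 to 0.47 (95%). Without the trend it was 0.20 (edgeR adjusted p = 0.51) by the median and 0.17 (edgeR adjusted p = 0.61) by the longest transcript. A difference between the regions was not detected for this gene, and one of up to 0.47 is within the interval.

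Per kilobase of exon, the order of levels was led by Thbs1, Tnc, Lama3 and Lamb3. In control cells Thbs1 stood at 119 CPM per kb ± 26.7 (SD, n = 8), Tnc at 62 ± 11, Lama3 at 35.1 ± 4.27, Lamb3 at 32.8 ± 5.86, Lama5 at 10.2 ± 2.71, Col7a1 at 7.64 ± 1.87, Lamc1 at 7.35 ± 2.08, Fn1 at 6.39 ± 11.5 and Lamb2 at 0.469 ± 0.183. The range of Thbs1 did not overlap that of Tnc, nor that of Tnc the range of Lama3, while those of Lama3 and Lamb3 overlapped, and Lama5, Col7a1 and Lamc1 could not be ordered. The Fn1 level in control rests on replicate 1, without which it was 2.37 CPM per kb ± 1.65 (SD, n = 7). In distal cells the order was Thbs1 at 126 CPM per kb ± 39.2 (SD, n = 6), Tnc at 88.4 ± 22.2, Lamb3 at 73.7 ± 20.1, Lama3 at 48 ± 10.3, Lama5 at 17.6 ± 3.11, Col7a1 at 17.2 ± 4.22, Lamc1 at 8.43 ± 1.45, Fn1 at 5.91 ± 3.96 and Lamb2 at 1.49 ± 0.509. Neighbours from Thbs1 down to Lama3 overlapped in distal cells, where Lamb3 was ahead of Lama3 in the means. The order of these 2 genes depends on the length used, here 6612 bases of exon for Lamb3 and 10745 for Lama3. Their longest transcripts have 4867 and 10548 bases. The levels are also uncorrected. With the trend removed, the log2 ratio of Lamb3 to Lama3 differed between regions by -0.06 by the median and 0.09 by the longest transcript.

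The way the genes varied among libraries of 1 region was compared through each library's deviation from its region's mean log2 CPM, as a description over 14 libraries that share depth and base composition. Lama3 and Lamb3 deviated together (Pearson r = 0.84, and 0.75 with the trend removed by the median transcript), and Lamb3 was the second most alike of 9113 genes to Lama3, after Ddrgk1 (r = 0.88). Lama5 went with Lamb2 (r = 0.77, and 0.72 with the trend removed) and with Lamc1 (r = 0.65 and 0.70). Lamb3 also went with Col7a1 (r = 0.73 and 0.63) and with Col17a1, a collagen of the hemidesmosome (r = 0.86 and 0.68). The genes most alike to the wound proteins were Lox, which encodes a collagen crosslinking enzyme, for Fn1 (r = 0.84), Tinagl1, which encodes a matricellular protein of the basement membrane, for Tnc (r = 0.87), and Lamp1 for Thbs1 (r = 0.91). Those of the other chains were Brpf1 for Lama5 (r = 0.86), Prdm10 for Lamc1 (r = 0.86), Pnpla6 for Lamb3 (r = 0.87) and Emc10 for Col7a1 (r = 0.89).

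Genes that work with these proteins were counted on 4 further lists, also chosen with earlier results of these data known. Beside them stand the shares of all genes called. These were 24.3% higher and 24.1% lower without correction. They were 10.4% and 8.57% with the trend removed by the median transcript, and 10.6% and 8.32% by the longest. Of 23 basement membrane partners, 15 could be tested. Of these, 6 were higher, 1 was lower and 8 did not pass without correction (median log2 fold change 0.45), and 1 was higher and 2 lower with the trend removed by the median transcript. The 4 with the smallest p were Col18a1 (1.17), Tinagl1 (1.18), Hspg2, which encodes perlecan (1.36), and Col4a2 (0.87), all with edgeR adjusted p from 2.1e-05 to 0.00092. Without the trend their values were 0.27, 0.08, 0.51 and -0.29, of which that of Hspg2 passed (edgeR adjusted p = 0.046). With the longest transcript none of the 15 passed in edgeR (1 higher and 2 lower at an unadjusted p under 0.05, while DESeq2 without correction called 5 higher and 1 lower). Of 20 receptors for these matrix proteins, 17 could be tested. Of these, 8 were higher, 5 lower and 4 did not pass (median 0.26). In turn, 4 were higher and 3 lower with the trend removed by the median transcript and 3 and 1 by the longest. The partners of a hemidesmosomal integrin moved apart: Itgb4 rose by 1.29 (edgeR adjusted p = 6.9e-06), with 378 CPM ± 51 (SD, n = 8) in control and 922 CPM ± 223 (SD, n = 6) in distal cells. Itga6 fell by 0.83 (edgeR adjusted p = 0.00052), with 497 CPM ± 121 (SD, n = 8) in control and 279 CPM ± 42.9 (SD, n = 6) in distal cells. Itga6 was named after its values were seen. Without the trend Itgb4 was at 0.45 (edgeR adjusted p = 0.0077) and Itga6 fell by 0.57 (edgeR adjusted p = 0.01). By the longest transcript Itgb4 was at 0.34 (edgeR adjusted p = 0.051) and Itga6 fell by 0.68 (edgeR adjusted p = 0.003). Itga3, whose product pairs with beta 1 integrin as a laminin receptor, rose by 1.19, Itgb5 by 1.34 and Itga5, of the main fibronectin receptor, by 1.30. Without the trend their values were 0.39, 0.63 and 0.58 (edgeR adjusted p = 0.018, 0.016 and 0.029) by the median and 0.31, 0.41 and 0.45 (edgeR adjusted p = 0.055, 0.098 and 0.097) by the longest transcript.

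On the list of other wound matrix proteins 8 of 18 could be tested, of which 5 were higher, none was lower and 3 did not pass (edgeR, median 0.72), with 5 and 0 also at an unadjusted p under 0.05 and by DESeq2. Of the 8, 2 were higher once the trend was removed by the median transcript and 1 by the longest. Ccn1, a matricellular protein of wounds, passed in all 3 fits, at 1.13 (edgeR adjusted p = 0.00019), 0.79 (edgeR adjusted p = 0.0042) and 0.57 (edgeR adjusted p = 0.032). Ecm1, Mfge8 and Sparc had log2 fold changes of 1.41, 1.11 and 1.19 and passed only without correction, their values with the trend removed being 0.37, 0.17 and 0.63 by the median and 0.33, 0.18 and 0.70 by the longest transcript. Of 27 genes for processing or degrading matrix, 23 could be tested. Of these, 8 were higher, 1 was lower and 14 did not pass (median 0.35). In turn, 2 were higher and 1 lower with the trend removed by the median transcript and 1 and 1 by the longest. Plod3, a collagen lysyl hydroxylase, rose by 1.45 (edgeR adjusted p = 2.8e-05) and was at 0.55 with the trend removed by the median (edgeR adjusted p = 0.041) and at 0.44 by the longest transcript (edgeR adjusted p = 0.1). Plod2, of the same family, fell by 0.99 (edgeR adjusted p = 0.00019), and its values with the trend removed were -0.18 and -0.29 (edgeR adjusted p = 0.57 and 0.31). P4ha2, a collagen prolyl hydroxylase, was at 0.82 without correction and at 0.17 and 0.41 with the trend removed. Serpinh1, a collagen chaperone, was at 0.49 (edgeR adjusted p = 0.0048) and then at -0.30 and -0.45 (edgeR adjusted p = 0.1 and 0.02), so its direction reversed.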

How the data were processed

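Bulk RNA-seq was made with Smart-Seq2 cDNA and NexteraXT libraries, per the labels' protocols. For the 14 libraries the authors deposited unnormalised raw counts by gene symbol. The submitters' processing notes name HISAT2, featureCounts and the mm10 (GRCm38) build; strand use and the treatment of reads matching several genes are not given in the sources used here.

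The test was the two-sided robust quasi-likelihood test of edgeR 4.0.16 in R 4.3.3, on 11757 genes kept by filterByExpr with TMM scaling and a Benjamini-Hochberg adjusted p under 0.05, with DESeq2 1.42.0 and limma 3.58.1 used as alternatives. CPM used TMM-scaled totals, and SE was the size of the log2 fold change over the root of its F statistic. To remove GC and length trends, natural splines in GC content and log2 length, with 4 degrees of freedom for each, were fitted per library and used as offsets; GC content and lengths came from the GENCODE vM21 transcripts, available for 99.1% of tested genes. Likeness and ratios used log2 CPM with a prior count of 2. On simulated counts of 11654 genes for this comparison, 4.48% of 1.5-fold, 34.3% of 2-fold and 77.3% of 4-fold changes were recovered. Of unchanged genes, 0.0175% were called. With a simulated GC trend, 25.1% of unchanged genes were called before its removal and 0.0349% after. After removal 2.99% of 1.5-fold and 28.4% of 2-fold changes were recovered, so a member that did not pass may still differ. The simulated trend was a straight line, equal within a region, in the same GC content that the removal used, with no length trend. It therefore cannot show how well the removal suits the real libraries.

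The 9 genes and all gene lists (157 entries) were chosen with earlier results of these data known. By rule, the text could name all members, up to 4 tested genes with the smallest p from each other list, other laminin chains, and for each member the 3 most alike genes (average log2 CPM of at least 3), of which mostly the first is given; exceptions are marked. Some items that the rule names are withheld and are not reported here. The 23 pairs of libraries within a set differed by more than sampling noise (chi-square per degree of freedom 6.83 to 40.0), and all were kept. Counts carry no molecular identifiers, so counting error understates the error of a library. The sequences of Lamb3, Lama5, Col7a1 and Tnc are RefSeq's; raw reads were not used here.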

Additional observations from a re-analysis of the deposited data

Results flagged for a closer look

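In 4 cases 1 library lay apart from its group by Dixon's criterion at 95%, which chance alone meets in about 1 of 20 groups. Fn1 was at 404 CPM in control replicate 1, with the next control library at 54.6 CPM, and at 157 CPM in distal replicate 3, with the next distal library at 74.7 CPM; the same libraries had the highest sums of fibroblast markers, 328 and 215 CPM, and the part of these in the Fn1 level was not tested. Lamc1 was at 99.8 CPM in control replicate 8, the next at 63.2 CPM. Col7a1 was at 121 CPM in control replicate 7, the next at 86.4 CPM.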

How the results depend on the processing

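Among 48 alternatives, the 5681 genes past the threshold became 2208 with the trend removed by the median transcript, 2200 by the longest, 2035 without the 2 libraries richest in fibroblast markers and without the trend, 3582 with counts summed per set, 311 when summed with the trend removed, 1365 in libraries over 4000000 counts and 2300 without control set 1, and 4903 to 5983 on leaving out each library (1726 to 2345 with the trend removed). The members past the threshold, 6 in the main test, became 3, 2, 3, 4, 0, 1 and 1 in the same order, 6 to 7 on leaving out each library and 2 to 4 with the trend removed; the 0 is edgeR's, with 2 higher and 0 lower at an unadjusted p under 0.05. Without distal set 2, which also leaves 8 control and 2 distal libraries, 4751 genes and 6 members passed, and without distal set 1 4129 and 5; thinning every library to the smallest total kept the count of members at 6. Replicate numbers do not pair the libraries (correlations of same-numbered libraries -0.02 to 0.11, with 2 of 6 distal libraries closest to their own number). A replicate block gave 5442 genes and 6 members, and with the trend removed 1905 and 3.

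Direction reversed as follows, and the cause was not tested. Fn1 was at 0.02 with upper-quartile scaling, 1.17 with DESeq2, 0.98 with limma-voom and 0.38 summed per set. With the replicate block it was at 0.83, and at 0.43 with block and trend removal. It was at 0.40 in libraries over 4000000 counts, 1.17 without control set 1 and 0.05 without distal set 1. Without the 2 libraries highest in fibroblast markers it was at 0.89, and at 0.47 with the trend removed as well. On leaving out each library it ranged from -0.54 to 1.32 (-0.93 to 0.95 with the trend removed). Lama5 was at -0.23 and -0.03 by the median and longest transcript, -0.37 summed with the trend removed and -0.09 with block and trend removal. With the trend removed it was also at -0.23 without the 2 libraries highest in fibroblast markers and at -0.30 to -0.14 on leaving out each library. Col4a2 gave -0.29, -0.12, -0.24, -0.40, -0.27 and -0.44 to -0.20 in that order, and Serpinh1 -0.30, -0.45, -0.29, -0.34, -0.25 and -0.34 to -0.25. Without trend removal, leaving out each library gave at most 1.08 for Col4a2 and 0.64 for Serpinh1. Plod2 was at 0.04 when summed with the trend removed. Thbs1 was at -0.11 in libraries over 4000000 counts, -0.19 without control set 1 and -0.07 without distal set 2, and Lamc1 at -0.11 with the longest transcript and -0.16 without control set 1. The log2 ratios of Lamb3 to Lama3, Lama5 to Lamc1, Lamb2 to Lamc1 and Lamb2 to Lamb1 differed by -0.06, -0.88, -0.17 and -0.21 with the trend removed by the median transcript. Removal by the longest transcript and the omission of the 2 libraries highest in fibroblast markers were added after the data were seen. The median log2 fold change of all genes was -0.16 with TMM, -0.18 with DESeq2 size factors and 0.00 with upper-quartile scaling.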
